A study of Homo sapiens with 32 samples.

Results

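Genes of Toll-like receptor signalling were followed across the series: 6 receptors (TLR1, TLR2, TLR3, TLR4, TLR5 and TLR6), the lipopolysaccharide co-receptor CD14 and the adaptor MYD88. These 8 members are 8 of the 60332 genes in rows of the count table. The members were chosen by gene symbol with earlier results of these data known, and each symbol had 1 row, so that total counts, which the rule uses to choose between rows of 1 symbol, decided nothing. Which of these genes moved is therefore a description of these libraries, and the number that moved is no independent evidence about the family.

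Toll-like receptors are membrane proteins that recognise parts of microbes and molecules released by damaged cells. TLR2 pairs with TLR1 or TLR6 at the cell surface to bind lipopeptides, TLR4 binds lipopolysaccharide together with MD-2 and receives it from CD14, TLR5 binds flagellin, and TLR3 binds double-stranded RNA inside endosomes. MYD88 carries the signal of all of these receptors except TLR3, which signals through TICAM1, also called TRIF. These routes end in NF-kB target genes and in type I interferon. Epithelial cells carry several of these receptors, usually at lower levels than monocytes and macrophages, for which CD14 is a common surface marker.

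Polyadenylated RNA had been measured in 32 libraries, 2 for each of 16 groups, in 3 parts that share no group. The series' design text names the parts, but no sample label does, and libraries were placed by line, genotype and treatment. Part 1 held MCF10A, an immortal human breast epithelial line: wild type (WT) untreated; WT irradiated (IR) with 10 Gy and DMSO, at 3 d and at 5 d; WT irradiated with a CDK1 inhibitor (CDK1i), at 5 d; and irradiated cGAS, STING and XRCC4 knockouts (KO), at 5 d. Part 2 held MCF10A at 3 d after 10 Gy: WT, p53 KO, XRCC4 KO and the XRCC4 p53 double knockout (DKO), and the last 2 lines again with an ATR inhibitor (ATRi). Part 3 held the telomerase-immortalised retinal pigment epithelial line hTERT RPE-1, all at 3 d after 10 Gy with ATRi: p53 KO, WT, and a group that its labels call WT cGAS. Each knockout came from CRISPR-Cas9 and a single cell, its clone is not named, and no knockout was measured without irradiation, so a lost gene and other differences between lines cannot be told apart. DMSO is named for the irradiated WT groups of part 1 without an inhibitor and for no other group. cGAS senses DNA in the cytosol and STING relays its signal, XRCC4 joins broken DNA ends, CDK1 drives cells into mitosis, and ATR and p53 act in checkpoints.

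Total counts ran from 5590061 to 18585999 per library. Replicate pairs differed by a chi-square per gene of 21.5 to 45.1 in STING KO and the 4 groups of WT cells in part 1 and of 1.55 to 3.38 in the other groups, so no pair agreed within sampling noise. No label says that the libraries of a group were separate cultures, so each p-value is set against a spread between libraries that may be technical. MB21D1, the cGAS gene, had 1.27 and 1.33 CPM (counts relative to the TMM-scaled library total) in cGAS KO against 17.4 and 15.4 in WT at 5 d, and TMEM173, the STING gene, had 10.3 and 9.32 CPM in STING KO against 84.4 and 54.2. In RPE-1, MB21D1 was at 336 and 341 CPM in WT cGAS and at 0.143 and 6.38 CPM in WT, whose second library thus stood apart. XRCC4 mRNA did not check its label, since a small edit need not lower an mRNA (7.82 and 6.58 CPM in XRCC4 KO, 9.73 and 7.59 in WT at 5 d). The summed level of 6 basal breast epithelial markers was at least 4499 CPM in MCF10A and at most 10.1 CPM in RPE-1. Of 6 retinal pigment epithelial markers, RPE65, TYR and RLBP1 had at most 1 count in any RPE-1 library, while MITF had 268 to 539, BEST1 19 to 41 and PMEL 5 to 16, and the sum of the 6 was 17.4 to 28.8 CPM in RPE-1 and 4.89 to 24.9 CPM in MCF10A. Of 5 mesenchymal markers, VIM was at 4059 CPM or more in each RPE-1 library and at 146 to 1069 CPM in MCF10A. THY1, PDGFRB and COL1A1 were also higher in every RPE-1 library than in any MCF10A library, and COL1A2 was at most 0.834 CPM in either line. Of 8 markers of monocytes and other blood cells, 7 were in the table. PTPRC, LYZ, FCGR3A and CD3E were at most 0.961 CPM in every library, ITGAM reached 5.79 CPM and CSF1R 20.9 CPM, both in MCF10A, and CD68, a lysosomal protein of macrophages that many cells express, made up most of the sum. Bulk RNA cannot tell more cells that express a gene from more RNA in each cell.

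The rows carry these identifiers and hg19 positions, which can be wider than the gene. TLR1 (ENSG00000174125) and TLR6 (ENSG00000174130) share chromosome 4, 38792298 to 38858438. TLR2 (ENSG00000137462) lies on chromosome 4, 154622652 to 154626851, and TLR3 (ENSG00000164342) on chromosome 4, 186990306 to 187009223. TLR4 (ENSG00000136869) spans chromosome 9, 120466610 to 120479149, and TLR5 (ENSG00000187554) spans chromosome 1, 223282748 to 223316624. CD14 (ENSG00000170458) is on chromosome 5, 140011313 to 140013286, and MYD88 (ENSG00000172936) on chromosome 3, 38179969 to 38184513. TLR1 and TLR6 are close paralogs in 1 deposited interval, so how reads were split between them is uncertain.

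The promoters of TLR3, MYD88 and CD14 are shown because they held a match to a motif searched. Those of TLR2, TLR4, TLR5 and TLR6 held none and are not shown. They are RefSeq sequences on GRCh38.p14, from 200 bases before the annotated start to 20 bases from it, on the strand of the gene. Capitals mark matches to GAAANNGAAA, the core of the interferon-stimulated response element (ISRE), or to TTCNNNGAA, the gamma-activated site (GAS) of interferon-responsive promoters. TLR3 is chr4:186068956-186069175 (plus strand), MYD88 is chr3:38138461-38138680 (plus strand) and CD14 is chr5:140633156-140633375 (minus strand).
TLR3: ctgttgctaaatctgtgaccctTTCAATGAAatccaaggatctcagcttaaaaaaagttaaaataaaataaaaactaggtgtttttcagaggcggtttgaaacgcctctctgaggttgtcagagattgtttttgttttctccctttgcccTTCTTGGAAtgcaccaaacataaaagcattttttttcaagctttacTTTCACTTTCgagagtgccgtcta
MYD88: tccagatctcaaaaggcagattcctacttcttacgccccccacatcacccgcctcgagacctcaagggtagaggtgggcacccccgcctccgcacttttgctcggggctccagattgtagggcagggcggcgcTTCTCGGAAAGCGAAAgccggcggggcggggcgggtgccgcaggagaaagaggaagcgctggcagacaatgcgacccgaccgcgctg
CD14: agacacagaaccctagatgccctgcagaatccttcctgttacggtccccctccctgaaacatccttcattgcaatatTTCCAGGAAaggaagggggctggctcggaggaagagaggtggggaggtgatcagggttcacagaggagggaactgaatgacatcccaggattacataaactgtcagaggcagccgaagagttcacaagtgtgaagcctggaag
RefSeq promoters of 300 bases were at hand for 7 of the 8 genes, all but TLR1. The ISRE core occurred in 2 of the 7, on either strand: as GAAAGCGAAA from 61 bases before the MYD88 start, where it overlaps a GAS match, and on the reverse strand across the TLR3 start, as TTTCACTTTC from base -4 to base 6. It occurred in 3.57% of all 35116 promoters of that length. The GAS motif, which reads the same on both strands, occurred in TLR3, CD14 and MYD88 and in 7.66% of all promoters. The NF-kB consensus of 10 bases occurred in 0 of the 7 and in 5.91% of all. A match describes the letters in this window and does not show that a factor binds there.

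Per transcript length, the members with the highest medians were MYD88, CD14 and TLR3 in MCF10A and MYD88, TLR4 and TLR3 in RPE-1. On the deposited FPKM scale (fragments scaled by length and library size), the median over 26 MCF10A libraries was 35.7 for MYD88, 6.75 for CD14, 6.47 for TLR3, 2.46 for TLR6, 1.39 for TLR1, 0.736 for TLR2, 0.407 for TLR5 and 0.060 for TLR4. Over 6 RPE-1 libraries the median FPKM was 16.5 for MYD88, 11.4 for TLR4, 7.10 for TLR3, 1.02 for TLR1, 0.571 for TLR6, 0.391 for CD14, 0.063 for TLR5 and 0.0545 for TLR2. The ranges of the lines did not overlap for TLR4, TLR6 and CD14: TLR4 was higher in every RPE-1 library, and TLR6 and CD14 were higher in every MCF10A library. The lines fell in separate parts and RPE-1 only with ATRi, so cell line and part cannot be told apart and no test was made. TLR7, TLR8, TLR9 and TLR10, the other human receptors, reached at most 0.353 FPKM in any library.

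**Figure D1:**
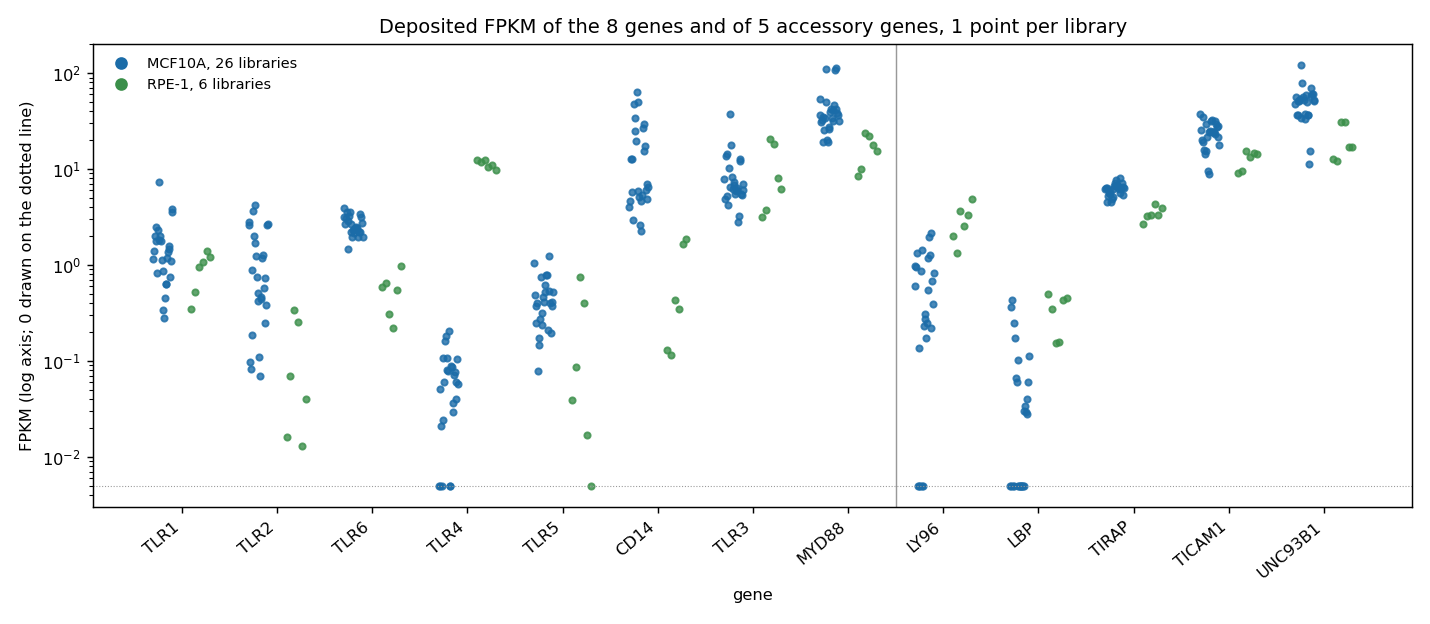
Deposited FPKM (log axis) of the 8 genes and, right of the line, of 5 accessory genes, 1 point per library, with values of 0 drawn on the dotted line. TLR4 is at 9.72 FPKM or more in all 6 RPE-1 points and at most 0.204 FPKM in the 26 MCF10A points.

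**Figure D2:**
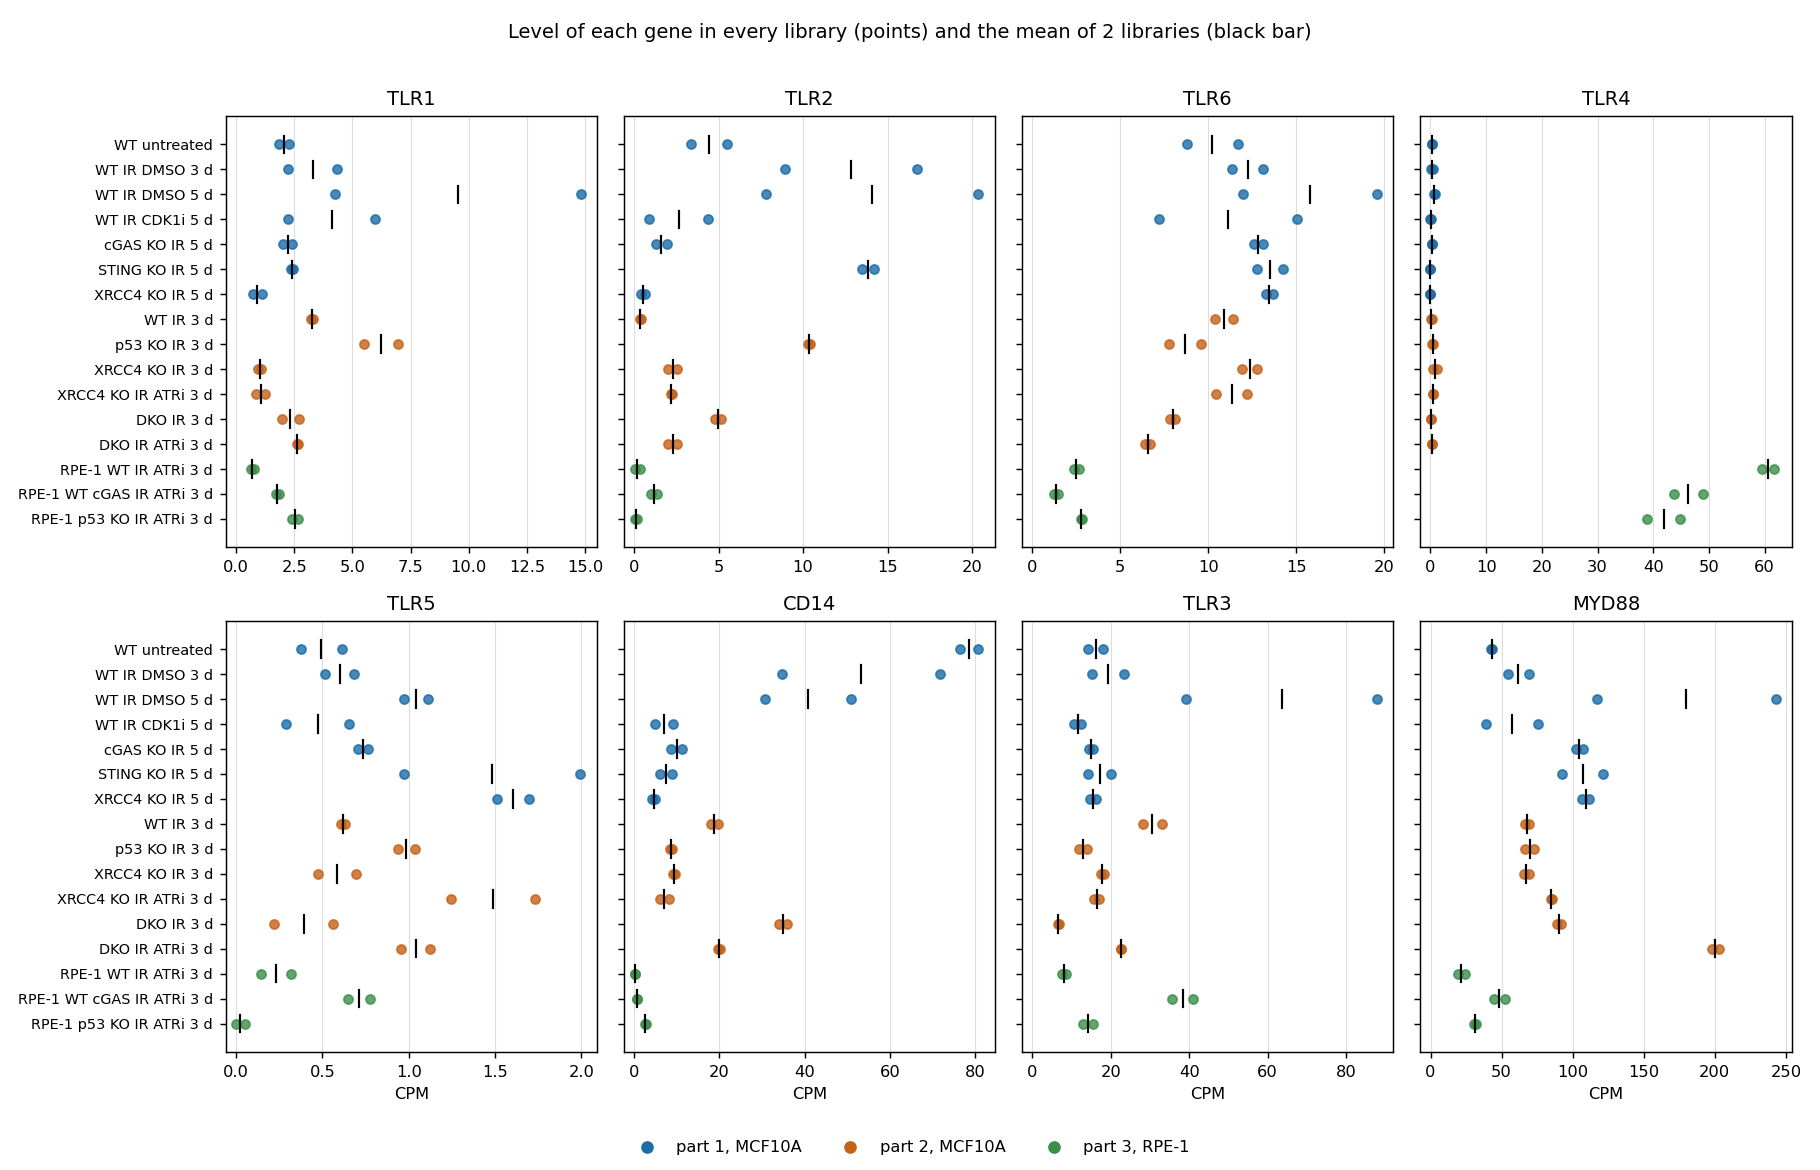
CPM of each gene (x axis, from 0, scaled for each gene) in every library of the 16 groups (points, coloured by part), with the mean of 2 libraries as a black bar. The libraries of WT IR DMSO 5 d lie far apart for TLR1, TLR3 and MYD88, and TLR4 is high in the 3 RPE-1 groups.

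TLR2, the shared partner in the lipopeptide receptors, ran from 0.344 to 20.4 CPM in MCF10A. In part 1 it was at 5.5 and 3.36 CPM in untreated cells, at 16.7 and 8.96 at 3 d after irradiation and at 20.4 and 7.83 at 5 d. The irradiated libraries thus all lay above the untreated ones, and replicate 1 was the higher in each of these groups. The log2 fold changes against untreated were 1.58 ± 0.61 at 3 d and 1.64 ± 0.60 at 5 d (± standard error), and neither passed edgeR's quasi-likelihood test at an adjusted p below 0.05, the threshold at which a gene is called here (adjusted p = 0.143 and 0.0635). With the replicate number as a block the change at 5 d passed (1.61 ± 0.44, edgeR adjusted p = 0.0224). With CDK1i, TLR2 was at 4.4 and 0.864 CPM at 5 d, below both DMSO libraries, a fall of log2 -2.43 ± 0.62 (edgeR adjusted p = 0.0335). That call was lost without DMSO replicate 1 or CDK1i replicate 2. It was also lost with no filter on low counts, with the compared groups only and with limma on log2 FPKM with 0.1 or 1 added.

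The knockouts of part 1 split for TLR2. It was at 1.27 and 1.95 CPM in cGAS KO and at 0.622 and 0.399 CPM in XRCC4 KO, and at 14.2 and 13.5 CPM in STING KO, inside the range of WT at 5 d. The fitted change against WT was -3.16 ± 0.68 in cGAS KO (edgeR adjusted p = 0.0154), -4.76 ± 0.86 in XRCC4 KO (edgeR adjusted p = 0.00429) and -0.03 ± 0.53 in STING KO (edgeR adjusted p = 0.976). Set directly against cGAS KO, STING KO was higher in both libraries, by 3.13 ± 0.69, which did not pass over all genes (edgeR adjusted p = 0.215). The 3 knockouts share the WT libraries as their control. The TLR2 call in cGAS KO was lost without WT replicate 1 or either cGAS KO library, and with no filter on low counts.

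In part 2 the WT level of TLR2 was 0.404 and 0.344 CPM (6 counts in each library), near the bottom of the MCF10A range. The group of part 1 with the same line, dose and day, which also names DMSO, had 16.7 and 8.96 CPM. The parts were fitted apart, and the part, DMSO and other differences between these groups cannot be told apart. Against this low WT level, TLR2 rose in p53 KO (10.3 and 10.4 CPM; 4.76 ± 0.24, edgeR adjusted p = 6.2e-15) and in XRCC4 KO (2.03 and 2.52 CPM; 2.60 ± 0.36, edgeR adjusted p = 9.12e-07). XRCC4 KO thus lay below WT in part 1 and above WT in part 2, while XRCC4 KO itself was at 0.399 to 0.622 CPM at 5 d and at 2.03 to 2.52 CPM at 3 d. The DKO was at 4.78 and 5.14 CPM, above XRCC4 KO and below p53 KO. The effect of XRCC4 loss on TLR2 was lower by 3.63 ± 0.38 on the log2 scale on the p53 KO background than on WT (edgeR adjusted p = 1.48e-08), and the levels show it as a rise in the one case and a fall in the other.

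ATRi left TLR2 at 2.17 and 2.23 CPM in XRCC4 KO, inside the range without the drug, and brought it to 2.02 and 2.56 CPM in the DKO, below both libraries without it (-1.10 ± 0.18, edgeR adjusted p = 6.99e-06). The difference of the ATRi effects was -1.04 ± 0.30 (edgeR adjusted p = 0.00791). In RPE-1, TLR2 was scarce: 1 and 5 counts in WT, 25 and 18 counts (1.35 and 0.998 CPM) in WT cGAS and 1 and 3 counts in p53 KO. The rise in WT cGAS against WT was 2.52 ± 0.55 (edgeR adjusted p = 0.000601).

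TLR1, a partner of TLR2, was at 2.26 and 1.83 CPM in untreated cells, 4.36 and 2.24 at 3 d, and 14.8 and 4.25 at 5 d. Its rise at 5 d, 2.19 ± 0.63 (edgeR adjusted p = 0.0272), was lost without replicate 1 of that group and without either untreated library. That rise was also lost with no filter on low counts, with the compared groups only and with limma on log2 FPKM with 0.1 or 1 added. At 5 d TLR1 was lower in cGAS KO (2.04 and 2.39 CPM; -2.11 ± 0.61, edgeR adjusted p = 0.0471) and in XRCC4 KO (0.711 and 1.10 CPM; -3.40 ± 0.74, edgeR adjusted p = 0.00959). The call in cGAS KO was lost without WT replicate 1 and without either cGAS KO library, and that in XRCC4 KO without either XRCC4 KO library. The cGAS KO call was also lost with no filter, the compared groups only and both limma fits, and that in XRCC4 KO with the compared groups only. STING KO had 2.35 and 2.44 CPM of TLR1 (-1.99 ± 0.62), which missed the threshold (edgeR adjusted p = 0.0566) and passed it with the replicate block (edgeR adjusted p = 0.0265). In part 2 TLR1 rose in p53 KO, with 6.98 and 5.5 CPM against 3.30 and 3.21 in WT (0.94 ± 0.18, edgeR adjusted p = 6.86e-05), and fell in XRCC4 KO, to 1.08 and 0.954 CPM (-1.66 ± 0.28, edgeR adjusted p = 1.73e-05). TLR1 and TLR2 thus moved the same way in p53 KO and opposite ways in XRCC4 KO at 3 d. ATRi gave no call for TLR1 in either line.

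TLR6, the other partner of TLR2, ran only from 6.39 to 19.6 CPM in MCF10A. In part 1 it was not called in any comparison, with 11.7 and 8.77 CPM in untreated cells and 19.6 and 12.0 at 5 d (0.62, edgeR adjusted p = 0.166). In part 2 it fell in p53 KO by 0.33 on the log2 scale, from 10.4 and 11.4 CPM to 9.58 and 7.77 CPM (SE 0.12, edgeR adjusted p = 0.0244). That call was lost without replicate 2 of either group, with DESeq2 and with limma on log2 FPKM with 0.1 or 1 added. TLR6 was also lower in the DKO than in XRCC4 KO, without ATRi (-0.64 ± 0.12) and with it (-0.79 ± 0.13). Both of these calls were lost with limma on the same FPKM scales, with mean FPKM of 2.13 against 2.35 and of 2.21 against 2.46. In RPE-1 TLR6 fell in WT cGAS, from 2.64 and 2.36 CPM to 1.46 and 1.22 CPM (-0.87 ± 0.26, edgeR adjusted p = 0.00807), where TLR1 rose from 0.642 and 0.766 CPM to 1.73 and 1.83 CPM (1.34 ± 0.33, edgeR adjusted p = 0.002). The TLR6 call was lost without WT replicate 1, without WT cGAS replicate 2, with DESeq2 and with limma on both FPKM scales.

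CD14, which hands lipopolysaccharide to TLR4 and assists other receptors, was the member with the highest FPKM in untreated MCF10A, at 63.5 and 49.8, beside 20.0 and 19.2 for MYD88. It was at 80.7 and 76.5 CPM in untreated cells, 71.6 and 34.6 at 3 d and 50.9 and 30.7 at 5 d. The irradiated libraries all lay below the untreated ones, and neither difference passed (-0.53 ± 0.36 and -0.94 ± 0.36, edgeR adjusted p = 0.401 and 0.075), but that at 5 d passed with the replicate block (-0.99 ± 0.29, edgeR adjusted p = 0.0304). CDK1i lowered CD14 to 9.0 and 4.89 CPM, against DMSO by log2 -2.59 ± 0.40 (edgeR adjusted p = 0.00644) and against untreated cells by -3.54 ± 0.41 (edgeR adjusted p = 0.000659). Each knockout at 5 d was also far below WT: cGAS KO had 11.3 and 8.68 CPM (-2.03 ± 0.39), STING KO 6.08 and 8.87 CPM (-2.46 ± 0.41) and XRCC4 KO 4.89 and 4.19 CPM (-3.18 ± 0.43), with edgeR adjusted p = 0.00955, 0.00445 and 0.00119. The call in cGAS KO was lost without WT replicate 1 and without either cGAS KO library. Both CDK1i calls were lost with the compared groups only.

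In part 2 CD14 was at 18.1 and 19.6 CPM in WT, again unlike the matching group of part 1. It fell in p53 KO to 8.49 and 8.87 CPM (-1.14 ± 0.11, edgeR adjusted p = 1.67e-09) and in XRCC4 KO to 9.63 and 9.13 CPM (-1.0 ± 0.11, edgeR adjusted p = 2.11e-08). In the DKO, with both genes lost, it was at 34.1 and 36.0 CPM, above WT and above each single knockout. The DKO exceeded XRCC4 KO by 1.89 ± 0.10 and p53 KO by 2.04 ± 0.10 (edgeR adjusted p = 2.99e-15 and 1.63e-15). The effect of XRCC4 loss was thus higher by 3.04 ± 0.15 without p53 than with it (edgeR adjusted p = 6.47e-15), the opposite sign to TLR2. ATRi lowered CD14 in both lines, to 19.7 and 20.1 CPM in the DKO (-0.82 ± 0.08, edgeR adjusted p = 1.33e-09) and to 8.10 and 6.03 CPM in XRCC4 KO (-0.42 ± 0.14, edgeR adjusted p = 0.0378). The latter was lost in 3 of the 4 fits without 1 of its libraries. It was also lost with DESeq2, with the compared groups only and with limma on log2 FPKM with 0.1 or 1 added. The difference of the 2 effects did not pass (-0.40 ± 0.16, edgeR adjusted p = 0.0537).

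In RPE-1 CD14 was rare, with 3 counts in each WT library, 11 and 10 in WT cGAS and 48 and 55 in p53 KO (2.43 and 2.70 CPM). It was higher in p53 KO than in WT by 3.66 ± 0.40 and higher than in WT cGAS by 2.17 ± 0.30 (edgeR adjusted p = 2.43e-07 and 3.76e-06). With p53 loss CD14 thus fell in MCF10A with XRCC4 intact and rose in RPE-1, in separate fits and with ATRi in RPE-1 only. In MCF10A XRCC4 KO, p53 loss went with higher CD14, also where both groups had ATRi (1.49 ± 0.11, edgeR adjusted p = 6.1e-12). The difference between the lines was not tested. The rise in WT cGAS (1.5 ± 0.59, edgeR adjusted p = 0.0365) was lost without any 1 of the 4 libraries. It was also lost with DESeq2 and with limma on log2 FPKM with 1 added.

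TLR4 was a gene of the RPE-1 libraries. It had 866 and 933 counts in RPE-1 WT (61.7 and 59.5 CPM), 903 and 787 in WT cGAS (48.9 and 43.6 CPM) and 887 and 793 in p53 KO (44.9 and 38.9 CPM). In MCF10A it had at most 17 counts in a library, was too low to be tested, and had 0 counts in both libraries of STING KO and of XRCC4 KO at 5 d, which allows up to 0.128 and 0.141 CPM (3 counts over a group, for counting error only). Among RPE-1 groups TLR4 was lower in WT cGAS than in WT by -0.37 ± 0.07 and in p53 KO by -0.49 ± 0.07 (edgeR adjusted p = 0.000277 and 1.26e-05), with no overlap of libraries. On the FPKM scale, with 0.1 or 1 added before the log2, neither fall was called. LY96, which encodes the MD-2 subunit that TLR4 needs, was at 1.35 to 4.83 FPKM in RPE-1 and at 0 to 2.15 FPKM in MCF10A, and LBP, which carries lipopolysaccharide to CD14, reached at most 0.497 FPKM. RPE-1 thus had TLR4 with little CD14, and MCF10A had CD14 with almost no TLR4 RNA.

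TLR5, the flagellin receptor, was low everywhere, with at most 28 counts in a library. ATRi raised it in XRCC4 KO, from 11 and 7 counts to 28 and 19 (1.32 ± 0.39, edgeR adjusted p = 0.0186), and in the DKO, from 4 and 10 counts to 18 and 25 (1.41 ± 0.42, edgeR adjusted p = 0.00565). The first call was lost without XRCC4 KO replicate 2 or the ATRi replicate 1, and with limma on both FPKM scales. The second was lost without DKO replicate 1 and with DESeq2. In the DKO the deposited FPKM went the other way, with 1 of the 2 libraries without ATRi at 1.23 FPKM on few reads. In p53 KO of RPE-1 TLR5 had 1 and 0 counts against 12 and 14 in WT cGAS and 2 and 5 in WT. The call against WT was lost without replicate 2 of either group, with DESeq2, with no filter on low counts and with limma on both FPKM scales. The ratio of WT cGAS to p53 KO was 28.6 (95% exact binomial interval 4.70 to 1172, counting error only) and that of WT to p53 KO was 9.46 (1.22 to 426).

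TLR3, the endosomal receptor for double-stranded RNA, was the receptor with the highest FPKM in all 13 MCF10A groups. It was at 18.1 and 14.2 CPM in untreated cells, 23.4 and 15.2 at 3 d and 88.0 and 39.1 at 5 d. The 5 d libraries stood apart from all others of part 1, with replicate 1 at over 2 times replicate 2. The rise over untreated was 1.97 ± 0.35 (edgeR adjusted p = 0.00375), while the change from 3 to 5 d, 1.68 ± 0.35, did not pass (edgeR adjusted p = 0.0723) except with the replicate block (1.66 ± 0.26, edgeR adjusted p = 0.0186). Every other group of part 1 at 5 d was near the untreated level: 12.5 and 10.6 CPM with CDK1i, 15.5 and 14.5 in cGAS KO, 20.2 and 14.3 in STING KO and 14.8 and 16.3 in XRCC4 KO. Against WT at 5 d these were falls of -2.51 ± 0.36, -2.09 ± 0.35, -1.89 ± 0.35 and -2.05 ± 0.35, with edgeR adjusted p = 0.00493, 0.00529, 0.00715 and 0.00346. The call in cGAS KO was lost without either cGAS KO library, and that in STING KO without its replicate 2. These falls and the rise over untreated all lost their calls with the compared groups only.

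In part 2 TLR3 was at 28.2 and 33.0 CPM in WT and lower in every knockout group. It fell in p53 KO to 11.9 and 13.99 CPM (-1.28 ± 0.09, edgeR adjusted p = 9.98e-12), in XRCC4 KO to 17.4 and 18.3 CPM (-0.77 ± 0.09, edgeR adjusted p = 4.59e-08), and lay at 6.42 and 6.89 CPM in the DKO. ATRi brought the DKO to 22.7 and 22.6 CPM (1.76 ± 0.11, edgeR adjusted p = 3.86e-13) and left XRCC4 KO at 15.8 and 16.98 CPM (-0.14 ± 0.10, edgeR adjusted p = 0.415). The ATRi effects differed by 1.90 ± 0.15 (edgeR adjusted p = 3.2e-10). In RPE-1 TLR3 rose from 7.56 and 8.61 CPM in WT to 40.9 and 35.7 CPM in WT cGAS (2.26 ± 0.11, edgeR adjusted p = 5.6e-12) and to 15.4 and 13 CPM in p53 KO (0.85 ± 0.13, edgeR adjusted p = 1.9e-05). The 3 RPE-1 groups did not overlap.

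MYD88, the adaptor of the surface receptors and of the interleukin-1 receptor, was at 42.9 and 43.0 CPM in untreated cells, 54.3 and 69.4 at 3 d and 243 and 117 at 5 d. It rose at 5 d by 2.07 ± 0.37 (edgeR adjusted p = 0.00384), and not past the threshold between 3 and 5 d (1.54 ± 0.36, edgeR adjusted p = 0.0986). CDK1i held it at 75.9 and 39.0 CPM, a fall of -1.70 ± 0.36 against DMSO (edgeR adjusted p = 0.0185). That call was lost without DMSO replicate 1 or CDK1i replicate 2, with no filter on low counts and with the compared groups only. Unlike TLR3, MYD88 in the 6 knockout libraries of part 1, at 92.8 to 121 CPM, lay above every untreated and 3 d library, and its changes of -0.74 to -0.80 against WT at 5 d did not pass (edgeR adjusted p = 0.152 to 0.178). In part 2 it did not differ past the threshold from WT in p53 KO (0.03 ± 0.05) or in XRCC4 KO (0.01 ± 0.06), and the effect of XRCC4 loss was higher by 0.39 ± 0.08 without p53 (edgeR adjusted p = 0.000151). ATRi raised it in the DKO from 91.5 and 88.8 CPM to 198 and 203 CPM (1.15 ± 0.05, edgeR adjusted p = 5.74e-17) and in XRCC4 KO from 69.2 and 65.6 CPM to 84.8 and 85.4 CPM (0.32 ± 0.05, edgeR adjusted p = 8.38e-05), the latter lost with limma on both FPKM scales. The rise was larger in the DKO by 0.83 ± 0.07 (edgeR adjusted p = 1.13e-09). In RPE-1 MYD88 was at 19.04 and 24.3 CPM in WT, 52.3 and 44.5 in WT cGAS (1.17 ± 0.11) and 32.1 and 30.6 in p53 KO (0.57 ± 0.11), with edgeR adjusted p = 1.08e-06 and 0.000749.

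**Figure D3:**
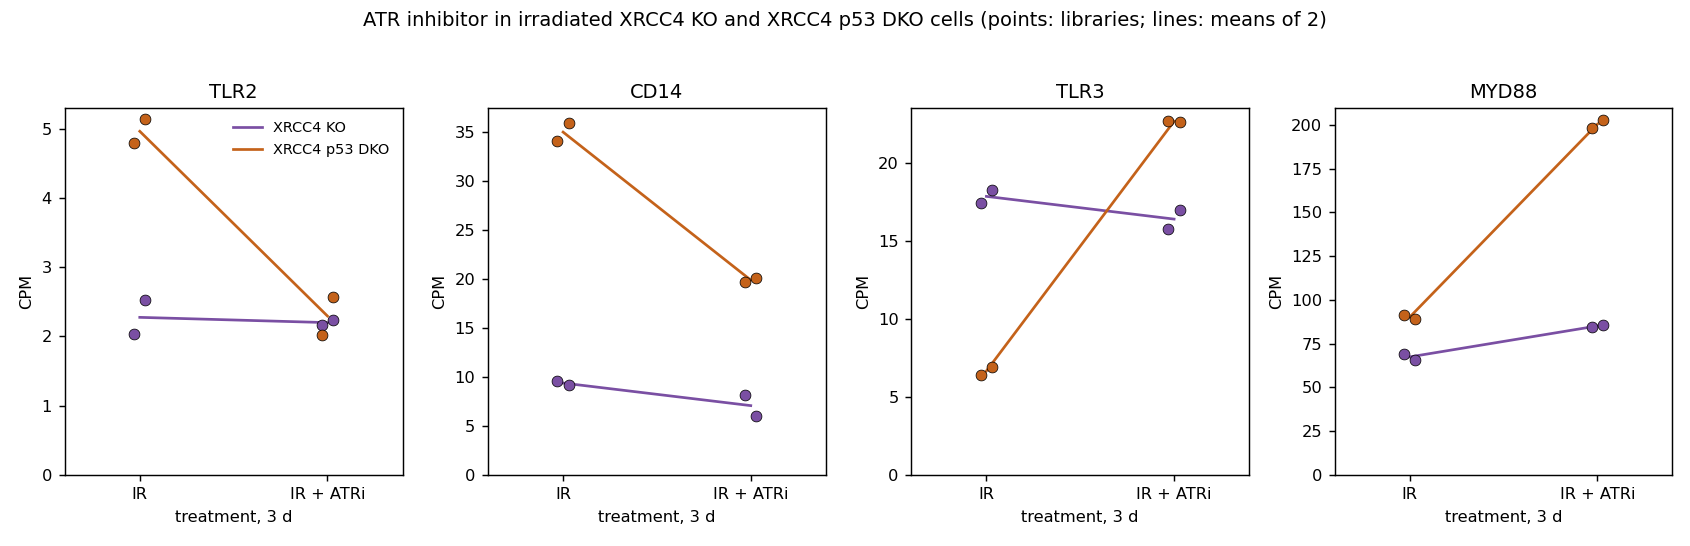
CPM (y axis, from 0) of TLR2, CD14, TLR3 and MYD88 in irradiated XRCC4 KO and XRCC4 p53 DKO cells at 3 d without and with ATRi (x axis), with points for libraries and lines for means of 2. In the DKO, ATRi goes with lower TLR2 and CD14 and higher TLR3 and MYD88, and in XRCC4 KO TLR2 and TLR3 hardly move.

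Across the family, the number of members called is best read beside the share of all genes called. In part 1, where 7 members were tested, 0 were called at 3 d against untreated (6.52% of all genes), 3 at 5 d (29.3%) and 0 between 3 and 5 d (0.263%). CDK1i gave 4 against DMSO (12.1%) and 1 against untreated (28.8%), cGAS KO 4 (13.5%), STING KO 2 (15.2%), XRCC4 KO 4 (24.7%), and STING KO against cGAS KO 0 (0.184%). At an unadjusted p below 0.05, edgeR gave 1, 3 and 1 members where the adjusted count was 0 (3 d against untreated, 5 d against 3 d, STING KO against cGAS KO). Of all 15190 genes tested, 3780, 2207 and 786 were below it in these comparisons. DESeq2 called 0, 2 and 1 members there, for which no share of all genes is given. All members called in the knockouts and with CDK1i were lower. Fitted with the compared groups alone, the counts were 1 at 5 d against untreated and 0 for CDK1i against either group. They were 2 in cGAS KO, 1 in STING KO and 2 in XRCC4 KO. Such a fit has fewer residual degrees of freedom, and its share of all genes called is not given here. The cause of the lower counts was not tested. For the fits below that leave out a library, too, no share of all genes called is given. Leaving out either cGAS KO library took the count in cGAS KO to 0, and leaving out WT 5 d replicate 1 took it to 1. Without STING KO replicate 2 the STING KO count was 1, and without CDK1i replicate 2 or DMSO 5 d replicate 1 the CDK1i count against DMSO was 2. Without DMSO 5 d replicate 2 the count between 3 and 5 d was 2.

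In part 2 the shares of all genes called were high, so a count of called members says little. Of the 7 tested, 5 were called in p53 KO against WT (52.9% of all genes), 4 in XRCC4 KO against WT (56.1%), 6 in the DKO against XRCC4 KO (64.9%) and 6 against p53 KO (49.7%). With ATRi, 3 were called in XRCC4 KO (17.0%), 5 in the DKO (58.5%) and 5 between these lines (71.8%). The differences of effects had 3 for ATRi (34.0%) and 3 for XRCC4 loss (43.7%). In part 3 all 8 were tested, and 8 were called in WT cGAS against WT (59.8%), 6 in p53 KO against WT (66.7%) and 7 in p53 KO against WT cGAS (64.7%). Without WT replicate 1 or WT cGAS replicate 2 the first of these counts was 5. In WT cGAS TLR1, TLR2, TLR3, TLR5, CD14 and MYD88 were higher, and TLR4 and TLR6 were lower. The median change of the tested members was 0.42 at 3 d and 1.64 at 5 d against untreated, -1.70 with CDK1i against DMSO, -2.03 in cGAS KO, -0.77 in STING KO and -2.05 in XRCC4 KO at 5 d, with medians of -0.04 to 0.00 over all genes. In part 2 it ran from -0.92 (DKO against p53 KO) to 0.47 (DKO against XRCC4 KO, both with ATRi), and in part 3 it was 1.42 in WT cGAS against WT, 0.38 in p53 KO against WT and -0.36 in p53 KO against WT cGAS.

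**Figure D4:**
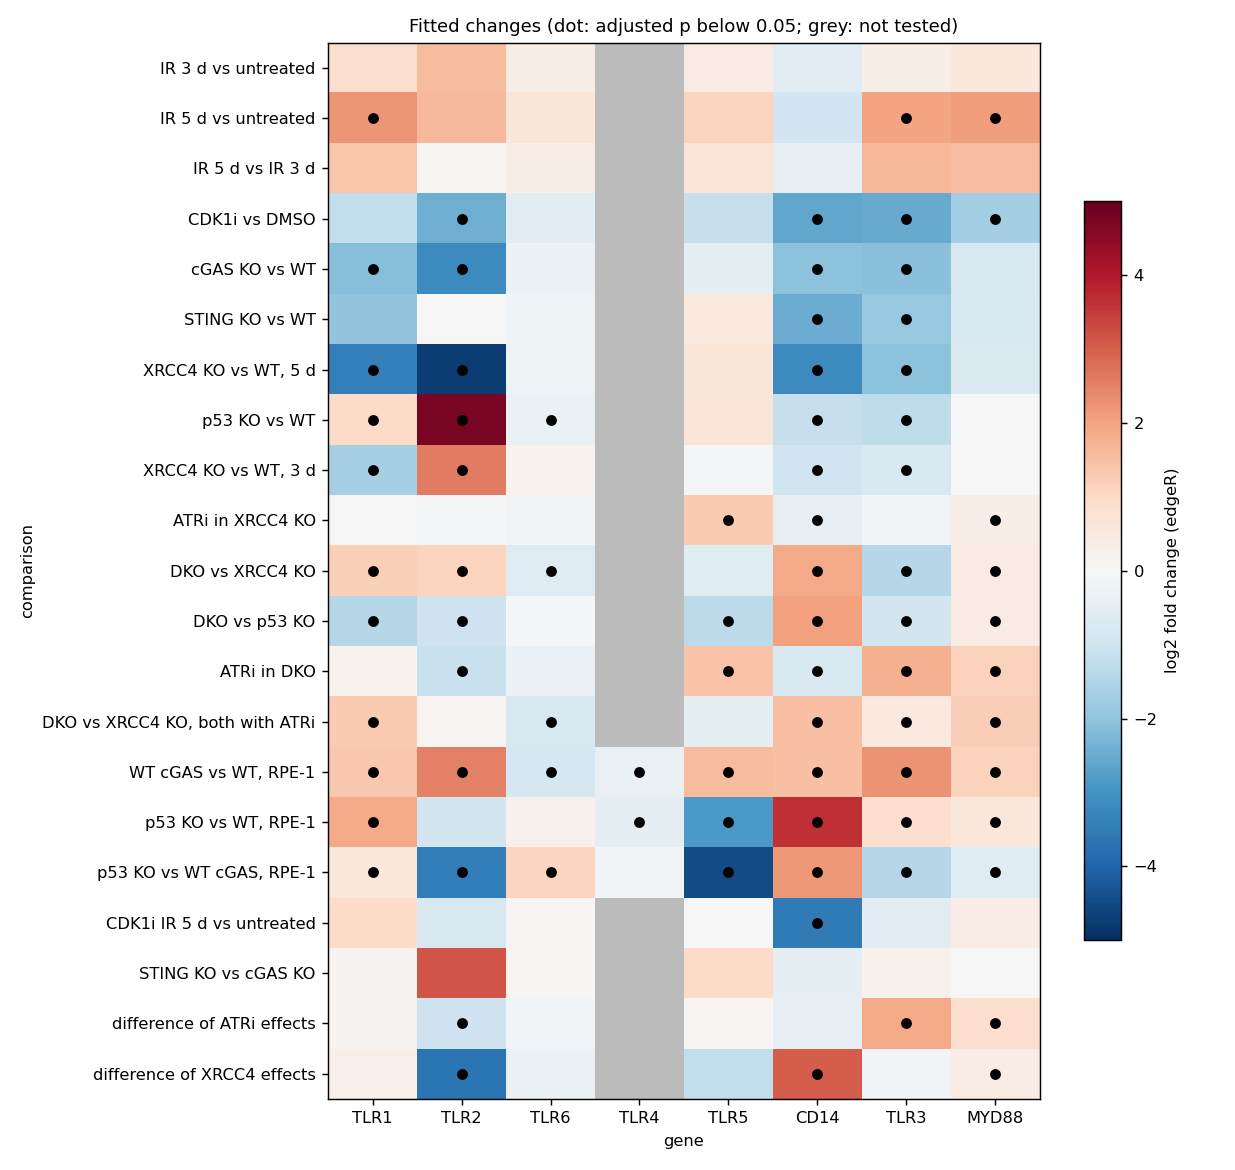
Fitted log2 fold change (colour) of each gene (x axis) in each comparison (y axis), with a dot where the edgeR adjusted p is below 0.05 and grey where the gene was not tested. The 5 d knockout and CDK1i dots are all on the lower side, and TLR2 changes sign between XRCC4 KO vs WT at 5 d and at 3 d.

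Of 62 other genes of the pathway, listed by role, 53 to 56 were tested in a part. Their counts, too, are read beside the shares of all genes called given above. At 5 d against untreated 15 of 53 were higher and 7 lower (median 0.26), where 29.3% of all genes were called. UNC93B1, the chaperone that brings TLR3 to endosomes, rose by 0.98 ± 0.27, the TLR3 adaptor TICAM1 by 1.52 ± 0.35 and the interferon regulatory factor IRF7 by 4.04 ± 0.58. Among negative regulators SIGIRR fell by 1.16 on the log2 scale (SE 0.20) and NFKBIA by 0.68 (SE 0.13), while CYLD rose by 0.92 ± 0.25. Of the target cytokines 4 rose and 1, CCL20, fell. With CDK1i all 16 called genes of 53 were lower than with DMSO (12.1% of all genes called), among them the TLR2 co-receptor CD36 (-2.98 ± 0.49), the kinase IRAK2 (-2.48 ± 0.28), UNC93B1 (-0.96 ± 0.27) and CCL5 (-4.44 ± 0.85). CD36 was also lower in cGAS KO (-2.19 ± 0.45), STING KO (-2.06 ± 0.46) and XRCC4 KO (-2.38 ± 0.49), each at under 1 CPM.

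ATRi in the DKO raised 18 of 56 pathway genes and lowered 19, where 58.5% of all genes were called. UNC93B1 rose from 12.99 and 13.7 CPM to 56.5 and 54.0 CPM (2.04 ± 0.08), and IRF7, CXCL10 and ATF3 rose by 3.83 ± 0.12, 5.81 ± 0.19 and 3.82 ± 0.07. Of the 6 genes for endogenous TLR ligands 5 fell, with TNC at -1.71 ± 0.06, and S100A8 and S100A9, which encode the subunits of calprotectin, at -0.99 ± 0.05 and -0.99 ± 0.04. IL1B fell by 1.03 on the log2 scale (SE 0.04). In WT cGAS RPE-1 36 of 56 pathway genes were higher and 8 lower than in WT, with 59.8% of all genes called. All 10 target cytokines and all 6 transcription factors of the list rose, with CCL5 at 8.64 ± 0.18, CXCL10 at 7.27 ± 0.40 and NFKB2 at 1.58 ± 0.05, and so did 6 of 7 tested negative regulators, with TNFAIP3 at 4.35 ± 0.07. The blood cell markers also differed between groups. Their sum was 33.9 to 47.1 CPM in untreated cells, 75.4 to 92.3 CPM at 5 d and 24.2 to 24.5 CPM with CDK1i. It was 70.6 to 76.8 CPM in the DKO and 119 to 122 CPM with ATRi. In RPE-1 it was 82.8 to 84.98 CPM in WT and 321 to 325 CPM in WT cGAS. The sum did not follow every member. At 5 d it was 65.3 to 66.3 CPM in cGAS KO, 60.8 to 62.9 CPM in STING KO and 55.6 to 60.2 CPM in XRCC4 KO. These sums lay above those of untreated cells, while CD14 in these knockouts lay below. With ATRi in the DKO the sum rose where TLR2 and CD14 fell. CD68 supplied 110 to 114 CPM in the DKO with ATRi and 317 to 321 CPM in WT cGAS, and the part of these markers in the results was not tested.

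The interferon-induced genes IFIT1, ISG15, MX1 and OAS1 gave a level against which to read the members. Their mean log2 CPM was 1.44 and 1.27 in untreated cells, 9.19 and 7.34 at 5 d, and 5.62 and 5.45 in cGAS KO, 4.43 and 3.48 in STING KO and 3.49 and 3.89 in XRCC4 KO. It was 2.56 and 2.45 in the DKO and 6.98 and 6.99 in the DKO with ATRi, and 3.08 and 3.44 in RPE-1 WT and 8.73 and 8.44 in WT cGAS. In p53 KO of part 2, at 4.94 and 5.03, it was above WT (3.48 and 4.04), while TLR3 was lower. As a description over 26 MCF10A libraries, each gene centred on its part, Pearson's r with this level was 0.81 for MYD88, 0.63 for TLR3, 0.60 for TLR1, 0.25 for TLR2, 0.12 for TLR6 and 0.07 for CD14, and Spearman's rho was 0.66, 0.49, 0.57, 0.18, 0.06 and -0.04. Within part 1 and part 2 alone r was 0.85 and 0.73 for MYD88, 0.81 and 0.35 for TLR3, 0.62 and 0.56 for TLR1, 0.33 and 0.09 for TLR2 and 0.06 and 0.10 for CD14. For TLR6 it was 0.71 in part 1 and -0.72 in part 2. Libraries of a group share their treatment, and these values carry no p.

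**Figure D5:**
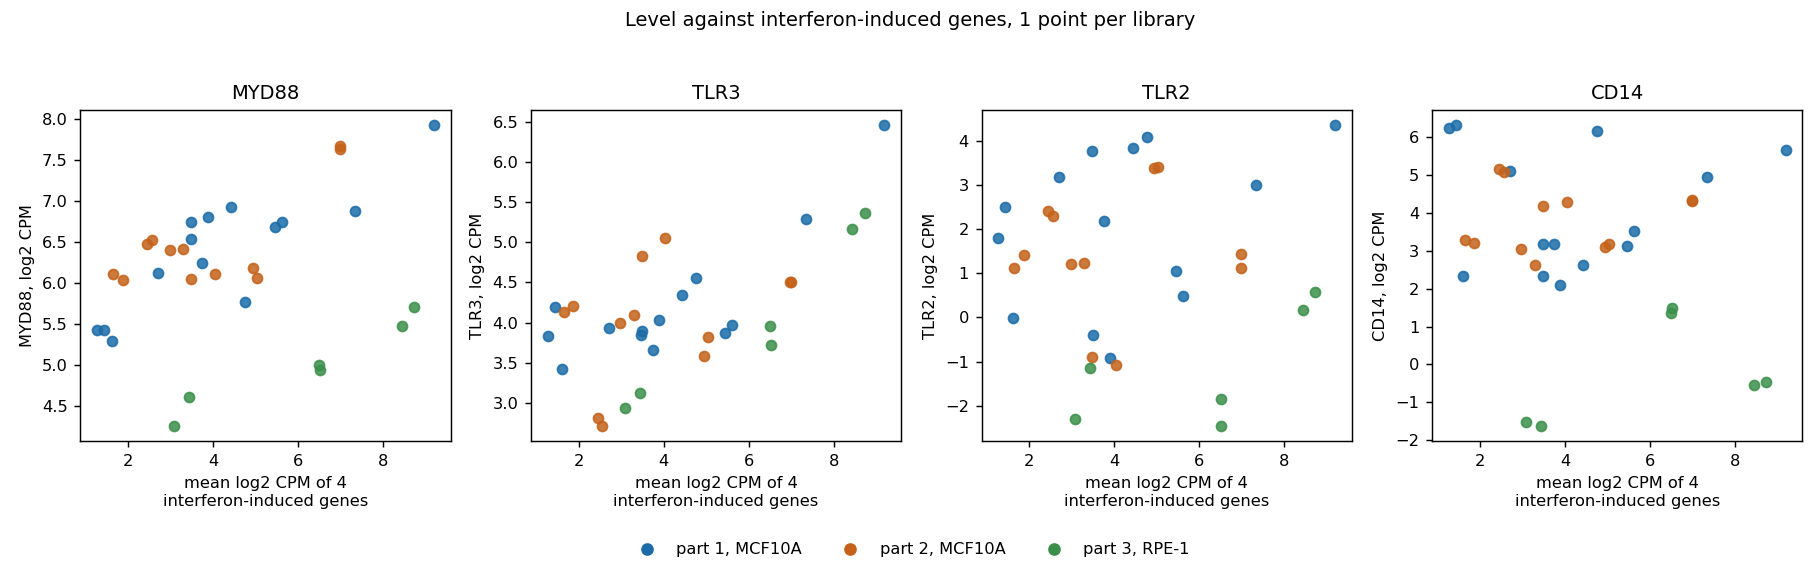
Log2 CPM (y axis) of MYD88, TLR3, TLR2 and CD14 in 32 libraries against the mean log2 CPM of 4 interferon-induced genes (x axis), coloured by part. MYD88 and TLR3 are highest at the right within part 1, CD14 has high libraries at both ends, and TLR2 is spread across the axis.

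The genes whose MCF10A pattern was most like that of a member, among 13687 others with a mean of at least 1 CPM over the same 26 libraries, differed from member to member. For MYD88 they were TRIM21, DDX60L, TDRD7, SAMD9L and C6orf62 (r from 0.91 to 0.94). For TLR3 they were AC009133.1, TAP1, PARP10, RNF213 and SHISA5 (r from 0.84 to 0.88), and for TLR1 PADI2, ETV6, SECTM1, B4GALT5 and TNFSF13 (0.86 to 0.91). Genes like CD14 included ITGA10, MT1E, SERPINA1 and SOD2 (0.88 to 0.89), and TLR6 was most like GSN, TMEM265, CD82, NECAP2 and CLIP4 (0.82 to 0.88). TLR2 had the weakest neighbours, TIGD1, ANXA6, ZNF532, AC098864.1 and BIRC3 (0.65 to 0.68). Some of these values differed between part 1 and part 2, as for CD14 with SOD2 (r of 0.95 and 0.50). TLR2 had 0.84 and 0.45 with TIGD1 and 0.78 and 0.36 with BIRC3. Others were near in both, as for CD14 with MT1E (0.88 and 0.95). Between members the highest r was 0.53, for TLR1 with TLR2, and TLR3 had 0.44 with TLR6 and 0.44 with MYD88.

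Over the 16 groups ordered by mean CPM, 12 of 15 neighbouring pairs overlapped for TLR1, 11 for TLR2, TLR3 and TLR4, 12 for TLR5, 10 for TLR6, 6 for CD14 and 8 for MYD88. MYD88 was highest in the DKO with ATRi (200 ± 3.12 CPM, SD, n = 2), which overlapped WT IR DMSO 5 d (180 ± 88.8), and lowest in RPE-1 WT (21.7 ± 3.73). TLR3 ran from 63.5 ± 34.6 CPM in WT IR DMSO 5 d, overlapping RPE-1 WT cGAS (38.3 ± 3.69), to 6.65 ± 0.33 CPM in the DKO. CD14 ran from 78.6 ± 3.00 CPM in untreated MCF10A, which stood apart from the next group, to 0.203 ± 0.016 CPM in RPE-1 WT. For TLR2 the 4 groups with the highest means, WT IR DMSO 5 d, STING KO, WT IR DMSO 3 d and p53 KO, each overlapped the next, and p53 KO stood apart from the DKO below it.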

How the data were processed

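Polyadenylated RNA of 32 libraries was analysed. The authors deposited estimated counts per gene, not normalised, and FPKM, a unit scaled by length and library size. Per the submitters' processing notes, the tools were STAR, Cuffnorm, DESeq2, FastQC and bcl2fastq and the build was hg19, with no versions or roles given here. Deposited starts count from 0 and are printed plus 1. Total counts set the precision, and intervals cover counting error only.

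Rounded estimated counts were filtered by filterByExpr, with 15190 genes kept for part 1, 16632 for part 2 and 15469 for part 3, out of 60332. Each part was fitted with group as the only term (edgeR 4.0.16, R 4.3.3, TMM, robust bias-adjusted quasi-likelihood, two-sided, Benjamini-Hochberg over all genes tested; 7, 6 and 3 residual degrees of freedom). A standard error is the fold change over the root of F. Log2 CPM use a prior count of 2. The fit was also run on simulated counts with the same dispersion (spread beyond counting error) for every gene and group of a part. The real groups of part 1 differed in replicate spread, and the outcome is not given here, so no support is drawn from it.

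Members and lists were chosen with earlier results of these data known, and 2 of the 21 comparisons (CDK1i against untreated, STING KO against cGAS KO) were added after values were seen. Up to 3 called genes per pathway list and direction with the largest change, over 3 counts in each compared group, could be named, and some are left out for length. The alternatives were other size factors, DESeq2 1.42.0, no filter, only the compared groups, limma 3.58.1 on log2 FPKM with 0.1 or 1 added, a replicate block and leaving out each library. Some genes, among them a targeted gene, are not reported here, and the interferon and blood cell lists were used without them.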

Additional observations from a re-analysis of the deposited data

Results flagged for a closer look

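These values stand out because the same change had different effects on 2 lines of part 2, by edgeR's test of the difference itself, adjusted over all genes tested. The log2 effect of ATRi, XRCC4 p53 DKO minus XRCC4 KO, differed by -1.04 for TLR2, 1.90 for TLR3 and 0.83 for MYD88. The log2 effect of XRCC4 loss, p53 KO background minus WT, differed by -3.63 for TLR2, 3.04 for CD14 and 0.39 for MYD88. The TLR2 difference for ATRi was lost with DESeq2 and with limma on both FPKM scales, and the other 5 differences kept their calls under all 15 alternatives. Each knockout is a single-cell line, so line and genotype cannot be told apart.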

How the results depend on the processing

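Of 79 calls on members over 21 comparisons, 48 held under every alternative and 31 were lost under at least 1. Other size factors lost 0 of these calls. Smaller moves in the number of members called, and calls lost without a larger move, are left out here. Among them, TLR4 and TLR5 lost their calls in RPE-1 p53 KO against WT with limma on both FPKM scales. The number of members called moved most as follows. Fitted with the compared groups only, it was 1 at 5 d against untreated, 0 for CDK1i against DMSO and 0 against untreated, 2 in cGAS KO, 1 in STING KO, 2 in XRCC4 KO at 5 d and 1 for STING KO against cGAS KO. With DESeq2 it was 2 between 3 and 5 d, 1 for ATRi in XRCC4 KO, 5 in WT cGAS against WT and 1 for STING KO against cGAS KO. Without a filter on low counts it was 2 in cGAS KO. With limma on log2(FPKM + 0.1) it was 3 in p53 KO and 0 for ATRi in XRCC4 KO, and on log2(FPKM + 1) it was 0 for ATRi in XRCC4 KO and 5 in WT cGAS. With a library left out it ran from 0 to 2 between 3 and 5 d, 2 to 5 for CDK1i against DMSO, 0 to 4 in cGAS KO, 1 to 3 in STING KO, 1 to 2 for ATRi in XRCC4 KO and 5 to 7 in WT cGAS. Only TLR5 changed sign: under limma on log2(FPKM + 0.1) and log2(FPKM + 1), DKO against p53 KO was 0.24 and 0.18 and ATRi in the DKO was -0.18 and -0.16. No share of all genes called is given here for any alternative. A shift in these members therefore cannot be told from a shift over all genes, and the cause of these shifts was not tested.

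With the replicate number as a replicate block the count was 5 at 5 d against untreated and 1 between 3 and 5 d, and 1 call on a member was lost (TLR1, p53 KO against WT cGAS). The labels give only 2 numbers and say nothing of what they share, so pairing was not established. Deviations of same-numbered libraries correlated at 0.24 to 0.43 in every pair of the 4 WT groups of part 1, at -0.15 to 0.43 over all of part 1, -0.05 to 0.02 in part 2 and -0.02 to 0.03 in part 3. Depth limits TLR4 and TLR5 in MCF10A and TLR2, TLR5 and CD14 in RPE-1, which rest on few counts.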

Other observations

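The labels give MCF10A WT at 3 d after 10 Gy in part 1, with DMSO, and in part 2, with no vehicle named. Between these groups TLR2 was at 16.7 and 8.96 against 0.404 and 0.344 CPM and CD14 at 71.6 and 34.6 against 18.1 and 19.6 CPM, while TLR3 was at 23.4 and 15.2 against 28.2 and 33.0 CPM, MYD88 at 54.3 and 69.4 against 66.1 and 69.1 CPM and TLR6 at 13.1 and 11.4 against 10.4 and 11.4 CPM. The libraries of the 2 groups did not overlap for TLR2, CD14 and TLR3, higher in part 1 for TLR2 and CD14 and in part 2 for TLR3, and they overlapped for MYD88 and TLR6. For CD14 the libraries of part 1 lay farther apart than the means of the groups. The differences were not tested, because the parts were fitted apart, and part, vehicle and other differences cannot be told apart.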
